A study of Mus musculus with 18 samples.

Results

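The Iroquois homeobox genes of the mouse are Irx1, Irx2, Irx3, Irx4, Irx5 and Irx6, and all 6 were found by their symbols among the 23337 genes of the count table. Irx1 to Irx5 were among the 14892 genes that passed a filter on low counts, and Irx6 was not. The cells were derived from mouse embryonic stem cells and are labelled cardiac progenitors. Every library, controls included, came from the line GLI1-FTA (strain A2Lox.cre), in which doxycycline (dox) induces GLI1, a transcription factor that carries the Hedgehog signal. GLI1 overexpression (OE) cells received dox at 500 ng/ml for 24 hours from D5 to D6, were washed, and gave 3 libraries at D6, 2 at D8 and 2 at D12. Untreated controls gave 4 libraries at D5 and, on the later days, as many as the GLI1 OE cells. No library received dox without the inducible gene, so an effect of the drug and an effect of GLI1 cannot be told apart.

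Iroquois proteins are transcription factors of the TALE homeodomain class, which pattern the heart, the neural tube, the limbs and other organs. In mouse the genes lie in 2 clusters, Irx1, Irx2 and Irx4 on chromosome 13 and Irx3, Irx5 and Irx6 on chromosome 8. In the heart, Irx4 is known as a regulator of ventricular identity, Irx3 for its role in the ventricular conduction system, and Irx5 for the gradient of repolarization across the ventricular wall. In the neural tube, Irx3 is one of the class I genes, which Hedgehog signalling restricts to more dorsal progenitors.

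The promoters of the 2 members that fell at D6 are shown because GLI proteins bind DNA at sites with the consensus GACCACCCA. The RefSeq promoter table, on build GRCm38.p6, held Irx2, Irx3 and Irx4. The 250 bases before each start are given 5′ to 3′ on the gene's strand, for Irx3 from chr8:91801655-91801904 (minus strand) and for Irx4 from chr13:73260247-73260496 (plus strand). Capitals mark the GGGTGG match, which is CCACCC on the other strand.
Irx3: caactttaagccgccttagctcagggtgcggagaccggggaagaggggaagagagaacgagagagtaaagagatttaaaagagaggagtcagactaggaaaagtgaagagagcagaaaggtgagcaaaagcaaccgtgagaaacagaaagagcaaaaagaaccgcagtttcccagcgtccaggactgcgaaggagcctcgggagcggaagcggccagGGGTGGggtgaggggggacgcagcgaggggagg
Irx4: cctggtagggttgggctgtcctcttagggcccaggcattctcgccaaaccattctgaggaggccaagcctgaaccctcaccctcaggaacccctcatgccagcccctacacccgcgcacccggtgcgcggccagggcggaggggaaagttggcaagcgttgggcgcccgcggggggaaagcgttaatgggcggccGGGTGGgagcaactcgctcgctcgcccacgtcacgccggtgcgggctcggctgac
Both strands of the 300-base windows, which also hold the first 50 bases of each gene, were searched. The consensus GACCACCCA and its shorter core CCACCCA were in 0 of the 3 members' windows, and in 0.253% and 9.3% of all 32851 promoter windows. The palindromic Iroquois motif ACANNTGT was in 0 of the 3, and in 7.38% of all windows. The 6-letter core CCACCC, added after the first search and contained in both GLI motifs, was in 3 of the 3 and in 31.5% of all windows.

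At D6, while GLI1 was induced, Gli1 averaged 909 ± 134 CPM in GLI1 OE and 13.99 ± 7.28 CPM in control cells (SD, n = 3 each), where CPM is the read count scaled to a fixed library size after TMM normalization. Ptch1, the Hedgehog receptor gene and a direct GLI target, was 899 to 1087 CPM in GLI1 OE and 34.5 to 73.8 CPM in control libraries. By D8, Gli1 was 0.925 and 1.45 CPM in GLI1 OE, against 0.752 and 1.18 CPM in controls. Total counts were 18470785 to 26184339 per library, with the D5 controls the deepest at 24842624 to 26184339. The chi-square per gene was 6.96 between D5 control libraries 1 and 2 and 51.5 to 95.7 between all others of that group, and both libraries stayed in the fit. It was highest, at 124, between D8 GLI1 OE libraries 14 and 18. In these the 6 cardiomyocyte markers summed to 10300 CPM (library 14) and 787 CPM (library 18). All 6 cardiac progenitor markers were detected in each of the 7 groups, with sums of 319 to 1080 CPM per library. The labels name no separate cultures behind the libraries of a group, and the p-values therefore refer to spread among these libraries alone, which may be technical.

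Before the pulse, at D5, the genes could be compared per length through the TPM, a level corrected for transcript length, that the authors deposited. Irx1 averaged 27.5 ± 21.4 TPM and Irx2 24.6 ± 21.9 TPM (SD, n = 4). Irx3 averaged 10.9 ± 3.63 TPM, Irx5 9.61 ± 5.59 TPM and Irx4 2.71 ± 1.59 TPM. Irx6 was listed at 0.110 TPM in replicate 1 and at 0 in the other 3 replicates. Irx1 and Irx2 were close in every replicate, and both were high in replicate 4, at 59.0 and 56.7 TPM, against 10.8 and 7.36 TPM in replicate 3. The ranges of neighbours in this order overlapped, except those of Irx4 and Irx6.

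TPM was also computed from the counts and the median GENCODE transcript length for every group, so that the make-up of Iroquois mRNA could be followed. Summed over the 6 genes it was 27.5 to 145.4 TPM at D5. At D6 it was 20.8 to 28.6 TPM in GLI1 OE and 53.3 to 98.8 TPM in controls, which did not overlap. At D8 it was 75.9 and 81.0 TPM in GLI1 OE, within the 66.2 and 110.2 TPM of the controls. At D12 it was 33.2 and 36.6 TPM in GLI1 OE, above the 16.5 and 21.7 TPM of the controls.

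**Figure D1:**
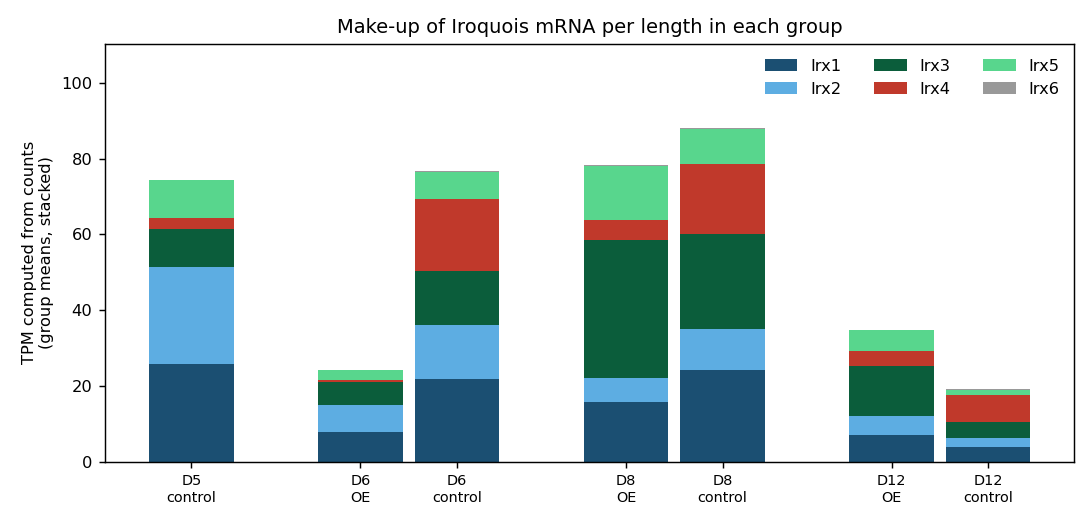
Computed TPM of the 6 Iroquois genes (vertical axis, group means stacked) in the 7 groups, with GLI1 OE left of its control on each day. The D6 GLI1 OE bar is the shortest of the bars before D12 and holds almost no Irx4, which made up 2.10 ± 1.11% of Iroquois TPM there and 25.8 ± 12.2% in D6 controls.

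The share of Irx4 in Iroquois TPM was lower in GLI1 OE than in controls at D6, D8 and D12. In GLI1 OE libraries it was 1.04% to 3.25% at D6, 0.823% and 12.9% at D8, and 3.71% and 19.5% at D12. In controls it was 5.30 ± 4.71% at D5 (n = 4), 25.8 ± 12.2% at D6 (n = 3), 19.3% and 23.6% at D8, and 36.7% and 39.8% at D12. The groups did not overlap on any of these days, with only 2 libraries a group at D8 and D12, and the share itself was not tested. At D12 the level of Irx4 did overlap between the groups (6.30 and 1.21 CPM in GLI1 OE, against 8.81 and 5.86 CPM in controls), and Irx3 and Irx5, which enter the total, were higher in both GLI1 OE libraries than in the controls. Irx3 made up 45.1% and 47.7% at D8 in GLI1 OE and 28.1% and 29.7% in controls, and 37.7% and 37.8% at D12 in GLI1 OE and 20.3% and 23.6% in controls.

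At D6 GLI1 OE cells were compared with controls of the same day, to ask what the pulse did while it lasted. Irx4 and Irx3 fell, and the estimates of Irx1, Irx2 and Irx5 were below 0 without passing the test. Called in the edgeR test at an adjusted p under 0.05 were 2 of the 5 tested members, both lower, against 1.12% of all genes called lower and 4.14% called in either direction. The median log2 fold change of the 5 was -1.43, beside -0.02 over all genes. In 4 of the 5 members the groups did not overlap and GLI1 OE was lower, which held for 13.8% of all genes.

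**Figure D2:**
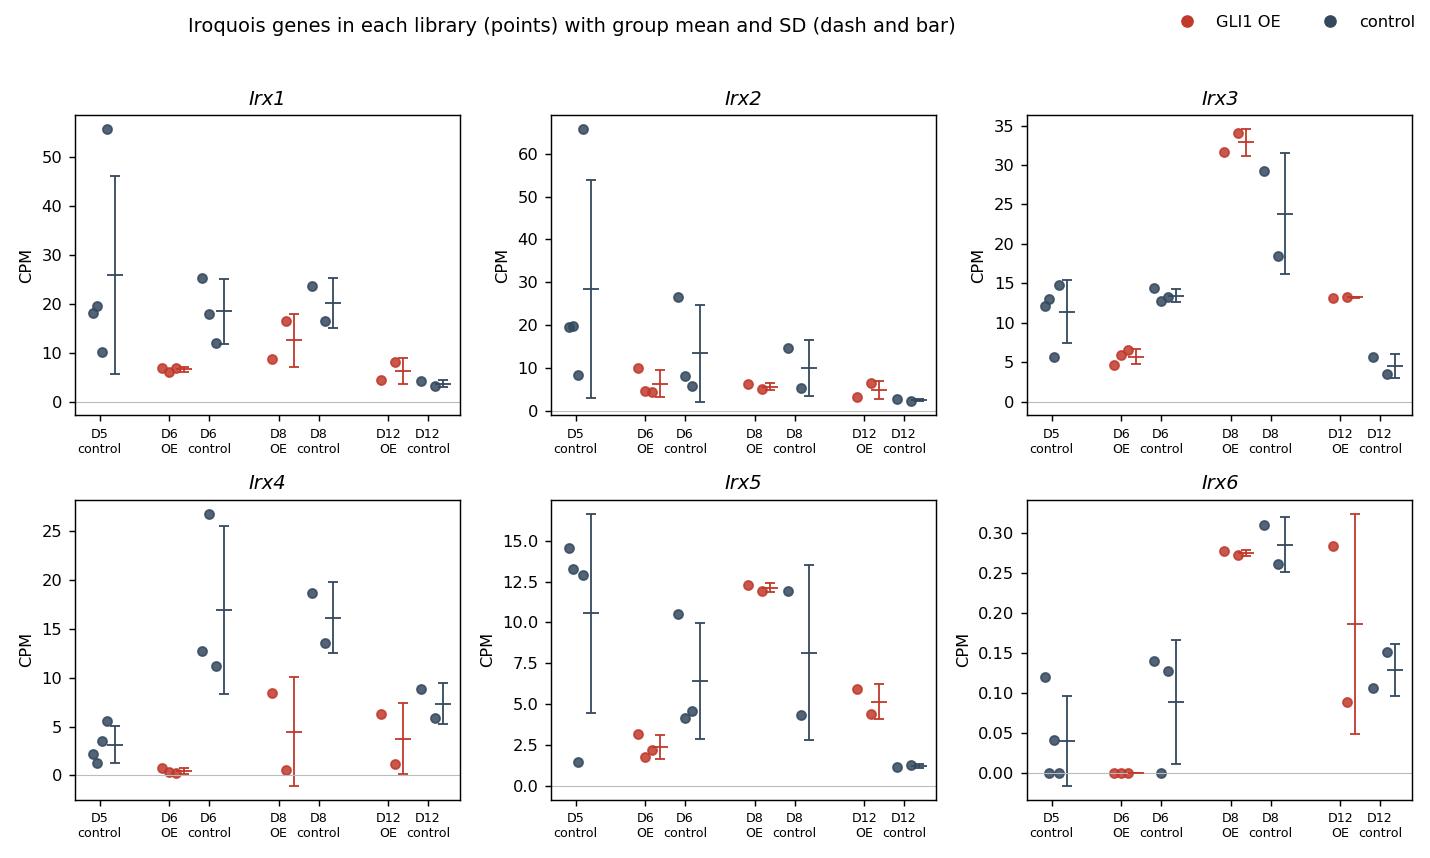
Level of each Iroquois gene (CPM, vertical axis, linear and scaled per gene) in every library (points) of the 7 groups, with GLI1 OE in red left of its control in grey, and group means with SD (dash and bar). Irx4 lies under 0.81 CPM in all D6 GLI1 OE libraries and at 11.2 to 26.8 CPM in D6 controls, and Irx3 peaks at D8 in both conditions.

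Irx4 had 0.807, 0.370 and 0.207 CPM in D6 GLI1 OE libraries 12, 16 and 4, against 12.7, 26.8 and 11.2 CPM in control libraries 11, 15 and 3. In raw counts these were 17, 8 and 5 reads with GLI1 OE, against 274, 573 and 263 in controls. Every GLI1 OE library was far below every control, and below the 1.29 to 5.61 CPM of the D5 controls. The log2 fold change was -5.20 ± 0.98 (SE; edgeR adjusted p = 0.00681), a level of 0.0273 of the control. The call held without each of the 6 libraries in turn, at adjusted p from 0.0141 to 0.049. The authors' deposited table gives -5.20 with an adjusted p of 8.49e-24.

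Irx3 had 4.65, 5.97 and 6.49 CPM in D6 GLI1 OE libraries 12, 16 and 4, against 14.4, 12.7 and 13.2 CPM in control libraries 11, 15 and 3. The libraries of each group lay close together and the groups were well apart. The log2 fold change was -1.23 ± 0.30 (edgeR adjusted p = 0.0283). The call was lost when any 1 of the 6 libraries was left out (GLI1 OE 12, 16 or 4, control 11, 15 or 3), at adjusted p from 0.0629 to 0.113 and log2 fold changes from -1.35 to -1.12. It was also lost with pairs of libraries of adjacent numbers as a block (adjusted p = 0.0695) and in limma-voom (0.0674). The authors' deposited table gives -1.23 with an adjusted p of 1.26e-08. Irx3os, an antisense gene of Irx3 in the reference annotation, has no line in the count table, and the strand setting of the counting is not given in the sources used here, so reads of the pair cannot be told apart.

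Irx1 had 6.79, 6.06 and 6.95 CPM in GLI1 OE libraries 12, 16 and 4, against 25.3, 17.99 and 11.99 CPM in control libraries 11, 15 and 3. The groups did not overlap, but the controls spread widely, and the log2 fold change of -1.48 ± 0.51 did not pass (edgeR adjusted p = 0.146). It passed when only D6 libraries were fitted (adjusted p = 0.0191), and the authors' deposited table gives an adjusted p of 5.68e-06. Irx5 had 3.18, 1.76 and 2.19 CPM in GLI1 OE libraries 12, 16 and 4, against 10.5, 4.16 and 4.59 CPM in control libraries 11, 15 and 3 (edgeR log2 fold change -1.43 ± 0.65, adjusted p = 0.295). Its groups did not overlap, and the authors' deposited table gives an adjusted p of 0.0122.

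Irx2 had 9.97, 4.63 and 4.47 CPM in GLI1 OE libraries 12, 16 and 4, against 26.5, 8.04 and 5.91 CPM in control libraries 11, 15 and 3. Its groups overlapped, with 1 high library in each, and those 2 carry adjacent numbers. The log2 fold change was -1.08 ± 0.71 (edgeR adjusted p = 0.537), and -0.14 without control library 11. Of the 5 tested members, 4 were called lower in the authors' deposited table for D6, all but Irx2, where 5.95% of genes were called lower and 12.9% in either direction.

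Irx6, the third gene of the chromosome 8 cluster, was close to the limit of detection everywhere. It had 47 counts in all 18 libraries together, at most 7 in 1 library, and 0 counts in all 3 D6 GLI1 OE libraries, against 3, 0 and 3 in D6 control libraries 11, 15 and 3. A count of 0 over the 3 GLI1 OE libraries allows a level of up to 0.0449 CPM, for counting error only. At D8 it had 6 and 6 counts in GLI1 OE libraries, against 7 and 6 in controls. With no filter on low counts, Irx6 passed in the comparison of GLI1 OE at D8 with GLI1 OE at D6 (edgeR adjusted p = 0.0141), on 12 counts against 0, and a difference at D6 was not detectable at this depth (edgeR adjusted p = 0.275).

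Markers of several cell types were compared at D6 as well, to set beside the Iroquois values. Of all genes at D6, 4.14% were called in either direction. The 6 cardiomyocyte markers summed to 855 to 2910 CPM in GLI1 OE and 2780 to 7470 CPM in controls, and all 6 had an estimate below 0 (median -1.58) with 0 called. The 6 cardiac progenitor markers summed to 400 to 449 CPM in GLI1 OE and 687 to 877 CPM in controls, with 5 estimates below 0 (median -0.75) and 0 called. The 5 smooth muscle and mesenchyme markers summed to 2350 to 4510 CPM in GLI1 OE and 4620 to 6350 CPM in controls, with all 5 estimates below 0 (median -0.78) and 0 called. The 5 endoderm markers, with Foxa2 as most of the sum in GLI1 OE, summed to 102 to 128 CPM in GLI1 OE and 6.6 to 11.5 CPM in controls, with all 5 estimates above 0 and 2 called, Foxa2 and Alb. The part of these cells in the Iroquois values was not tested, and in bulk RNA fewer cells of a type and less RNA per cell cannot be told apart.

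By library at D6, the cardiomyocyte sums were 2910, 867 and 855 CPM in GLI1 OE libraries 12, 16 and 4, against 7470, 4530 and 2780 CPM in control libraries 11, 15 and 3. Within GLI1 OE at D6, and within each pair of libraries of 1 condition at D8 and D12, the library with the higher sum also had the higher Irx4. In the D6 controls Irx4 was highest in library 15, which had the middle sum. The D5 controls went the other way. Libraries 1 and 2 had the higher sums (3740 and 3510 CPM) and the lower Irx4 (2.16 and 1.29 CPM). Libraries 3 and 4 had the lower sums (1110 and 1810 CPM) and the higher Irx4 (3.57 and 5.61 CPM). These orders are a description.

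Genes tied to Iroquois factors in the heart were taken from a list of 14 targets or partners, among them the repolarizing channel gene Kcnd2, which Irx5 represses, and the connexin genes Gja1 and Gja5. Of the 13 tested at D6, 0 were called, 3 had an unadjusted p under 0.05, and 12 had an estimate below 0 (median -1.27). Over all genes at D6, edgeR called 4.14% in either direction and 1.12% lower. An unadjusted p under 0.05 held for 15.8% of all genes and an estimate below 0 for 53%. Of 10 ventricular genes tested, 2 fell, Irx4 itself and Lbh, a transcriptional cofactor gene of the developing heart, which averaged 97.4 ± 37.1 CPM in GLI1 OE cells and 333 ± 86.1 CPM in controls (edgeR log2 fold change -1.77 ± 0.37, adjusted p = 0.014). Cited1, a transcriptional coregulator gene, and Mpped2, a metallophosphodiesterase gene, had estimates of -1.92 and -1.38 (edgeR adjusted p = 0.0756 and 0.0993). All 10 ventricular genes, Irx4 included, had estimates below 0.

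Of 12 atrial genes tested at D6, 1 rose and 1 fell, where 4.14% of all genes were called in either direction. Hey1, a Notch target that marks atrial myocardium, averaged 53.3 ± 6.29 CPM in GLI1 OE cells and 14.8 ± 4.42 CPM in controls (edgeR log2 fold change 1.85 ± 0.31, adjusted p = 0.00308). Kcna5, the gene of an atrial potassium channel, fell by 1.44 ± 0.35 on the log2 scale (edgeR adjusted p = 0.0304). Myh6, the atrial myosin heavy chain gene of the embryo, and Tbx5, a T-box factor gene, had estimates of -2.23 and -1.65 (edgeR adjusted p = 0.261 for both). Nr2f2, an orphan nuclear receptor gene of atrial identity named here after its values were seen, averaged 26.2 ± 4.18 CPM in GLI1 OE cells and 8.85 ± 1.62 CPM in controls (1.57 ± 0.71, edgeR adjusted p = 0.301). Of the 12, 8 had an estimate below 0. The median over the list was -0.51, beside -1.62 over the ventricular list, which includes Irx4 itself.

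Among neural tube genes at D6, 7 class I genes were listed and 5 tested, of which 1 fell, Irx3. Pax6, Pax3, Dbx2 and Msx1 had estimates from -2.14 for Msx1 to 1.13 for Dbx2, and Pax6, Pax3 and Dbx2 averaged under 1.5 CPM in both groups. Hedgehog signalling turns class II genes on in ventral progenitors. Only 2 of the 6 listed passed the filter on low counts, and both rose, where 4.14% of all genes were called in either direction. A listed gene that stayed silent in all groups could not pass the filter, so the 2 do not stand for the class. Nkx2-9 averaged 95.8 ± 39.0 CPM in GLI1 OE cells and 2.97 ± 1.06 CPM in controls (edgeR log2 fold change 5.01 ± 0.49, adjusted p = 4.31e-05). Foxa2 was listed as a gene raised by Hedgehog, and is a floor plate and endoderm gene, not a class II gene in the narrow sense. It averaged 97.6 ± 13.3 CPM in GLI1 OE cells and 0.567 ± 0.278 CPM in controls (7.43 ± 0.97, edgeR adjusted p = 0.00042). Neural markers summed to 266 to 415 CPM in GLI1 OE and 321 to 651 CPM in controls. Of the 12 other TALE homeobox genes (the Meis, Pbx, Pknox and Tgif genes and Mkx), 0 were called, and their median log2 fold change was -0.06.

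Against the D5 controls, the D6 GLI1 OE cells asked whether the genes lay below their level before the pulse. All 5 tested members fell, where 14.7% of all genes were called lower and 29.5% in either direction. This comparison has its GLI1 OE libraries in common with the one above. Those libraries had 20187924 to 22608134 total counts and 855 to 2910 CPM of cardiomyocyte markers, against 24842624 to 26184339 counts and 1110 to 3740 CPM in the D5 controls, and the part of either was not tested. Irx1 was 6.06 to 6.95 CPM in D6 GLI1 OE, against 18.03, 19.6, 10.2 and 55.8 CPM in D5 control libraries 1 to 4 (edgeR log2 fold change -1.97 ± 0.50, adjusted p = 0.009). Its groups did not overlap, and neither did those of Irx4 (-2.78 ± 0.91, edgeR adjusted p = 0.0335). Non-overlap with a lower D6 GLI1 OE group held for 18.3% of all genes. Irx2 (-2.16 ± 0.70, edgeR adjusted p = 0.0321), Irx3 (-0.999 ± 0.28, 0.0155) and Irx5 (-2.15 ± 0.63, 0.0198) overlapped with D5 control library 3, the lowest of the 4 for these 3 genes.

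The number of members called against D5 depended on single libraries. It was 2 without D6 GLI1 OE library 16 or library 4, and 3 without D5 control library 4. Irx1 kept its call without each of the 7 libraries (edgeR adjusted p from 0.00263 to 0.0423). Irx4 lost it without D5 control library 3 or 4 or D6 GLI1 OE library 16 or 4, Irx2 without D5 control library 4 or D6 GLI1 OE library 16 or 4, Irx5 without D6 GLI1 OE library 16 or 4, and Irx3 without D6 GLI1 OE library 12. Limma-voom called 1 of the 5.

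In untreated cells the members called between days were Irx4 from D5 to D6, and Irx1, Irx3 and Irx5 from D8 to D12. Differences between the members' courses were not tested. Between D5 and D6 Irx4 rose, 1 of the 5 tested members, where 8.39% of all genes were called higher and 18.4% in either direction. Irx4 had 12.7, 26.8 and 11.2 CPM in the D6 controls, against 2.16, 1.29, 3.57 and 5.61 CPM in the D5 controls (edgeR log2 fold change 2.42 ± 0.74, adjusted p = 0.0354). All D6 controls were above all D5 controls, a description, since the share of all genes separated in this way is not given here. The call was lost without D5 control library 1, 2 or 3 or D6 control library 15 or 3, at adjusted p from 0.0534 to 0.164. The other 4 had estimates from -1.08 for Irx2 to 0.24 for Irx3. Cardiomyocyte markers summed to 2780 to 7470 CPM in the D6 controls and 1110 to 3740 CPM in the D5 controls, and cardiac progenitor markers to 687 to 877 CPM at D6 and 408 to 929 CPM at D5.

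Between D6 and D8 in controls, 0 of the 5 members were called by edgeR, where 34.8% of all genes were. At an unadjusted p under 0.05 there was 1 member, Irx3, and 45.7% of all genes. Irx3 had 29.2 and 18.4 CPM in the D8 controls, against 14.4, 12.7 and 13.2 CPM in the D6 controls (edgeR log2 fold change 0.83 ± 0.32, adjusted p = 0.0559). The groups did not overlap, and the share of all genes separated in this way is not given here. Irx3 passed in DESeq2 (adjusted p = 0.0372) and in limma-voom (0.0441). With each of the 5 libraries left out in turn, its estimate ran from 0.449 to 1.11, the highest without D8 control library 17. Irx4 was 18.7 and 13.6 CPM in the D8 controls, within the range of the D6 controls.

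Between D8 and D12 in controls Irx1, Irx3 and Irx5 fell, where 19.4% of all genes were called lower and 36.3% in either direction. Irx3 had 5.62 and 3.49 CPM in the D12 controls, against 29.2 and 18.4 CPM in the D8 controls (edgeR log2 fold change -2.39 ± 0.37, adjusted p = 0.00033), and kept its call without each library. Irx1 had 4.14 and 3.13 CPM in the D12 controls, against 23.7 and 16.5 CPM in the D8 controls (-2.47 ± 0.66, edgeR adjusted p = 0.0101). Irx5 had 1.17 and 1.31 CPM in the D12 controls, against 11.9 and 4.36 CPM in the D8 controls (-2.71 ± 0.84, edgeR adjusted p = 0.0221).

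The D12 and D8 controls did not overlap for any of the 5 members, which held with lower values at D12 for 37.7% of all genes. Irx1 lost its call without D8 control library 13 (0.0529) or D12 control library 9 (0.0814), and Irx5 without D8 control library 13 (0.174), D12 control library 19 (0.115) or D12 control library 9 (0.102). The number called was 1 without D8 control library 13 or D12 control library 9, and 1 in limma-voom. Irx4 had 8.81 and 5.86 CPM in the D12 controls, against 18.7 and 13.6 CPM in the D8 controls (-1.14 ± 0.96, edgeR adjusted p = 0.378), and Irx2 had an estimate of -2.01 ± 0.92 (edgeR adjusted p = 0.102). Cardiac progenitor markers summed to 561 and 498 CPM in the D12 controls and 800 and 830 CPM in the D8 controls, cardiomyocyte markers to 9440 and 3690 CPM at D12 and 12500 and 4800 CPM at D8, and smooth muscle and mesenchyme markers to 7550 and 5260 CPM at D12 and 2240 and 3180 CPM at D8. The part of these cells in the control time course was not tested.

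After the wash, GLI1 OE cells were followed from D6 to D8. Irx3, Irx4 and Irx5 rose, where 20.3% of all genes were called higher and 40.1% in either direction. Irx3 had 31.7 and 34.1 CPM in the D8 GLI1 OE libraries, against 4.65 to 6.49 CPM in the D6 GLI1 OE libraries (edgeR log2 fold change 2.52 ± 0.32, adjusted p = 7.45e-05), and kept its call without each library. Irx5 had 12.3 and 11.9 CPM in the D8 GLI1 OE libraries, against 1.76 to 3.18 CPM in the D6 GLI1 OE libraries (2.35 ± 0.70, edgeR adjusted p = 0.0166). Both D8 libraries were high for Irx3 and Irx5. Cardiac progenitor markers summed to 1080 and 324 CPM in D8 GLI1 OE libraries 14 and 18 and 400 to 449 CPM in the D6 GLI1 OE libraries, and their part was not tested.

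For Irx4 the D8 GLI1 OE libraries disagreed. Irx4 had 8.42 CPM in D8 GLI1 OE library 14 and 0.545 CPM in library 18, against 0.207 to 0.807 CPM in the D6 GLI1 OE libraries (edgeR log2 fold change 3.28 ± 0.99, adjusted p = 0.0182). Library 18 lay inside the D6 range. Without library 14 the log2 fold change was 0.24 (edgeR adjusted p = 0.903), and the call was also lost without D6 GLI1 OE library 16 (0.0584) or 4 (0.0633). Irx5 lost its call without D6 GLI1 OE library 16 (0.0601) or D8 GLI1 OE library 14 (0.0652) and stood at 0.05 without D6 GLI1 OE library 4. The number called was 1 without any of these 3 libraries and 1 in limma-voom.

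At D8 GLI1 OE and control cells were compared 2 days after the wash. Called by edgeR were 0 of the 5 members and 0% of all genes, and at an unadjusted p under 0.05 0 of the 5 members and 5.95% of all genes. Irx4 had 8.42 and 0.545 CPM in GLI1 OE libraries 14 and 18, against 18.7 and 13.6 CPM in control libraries 13 and 17 (edgeR log2 fold change -1.85 ± 0.98, adjusted p = 0.852). Both GLI1 OE libraries were below both controls. Without GLI1 OE library 14 the estimate was -4.89, and without library 18 it was -0.93. Library 18, with the lower Irx4, was also the one with the lower cardiomyocyte marker sum (787 CPM, against 10300 CPM in library 14, and 12500 and 4800 CPM in the controls) and had 105 CPM of Ptch1, against 39.7 CPM in library 14. The part of either in the Irx4 value was not tested.

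Irx3 at D8 had 31.7 and 34.1 CPM in GLI1 OE libraries 14 and 18, against 29.2 and 18.4 CPM in control libraries 13 and 17 (edgeR log2 fold change 0.46 ± 0.35, adjusted p = 0.902). Irx5 had 12.3 and 11.9 CPM in GLI1 OE, against 11.9 and 4.36 CPM in controls (0.57 ± 0.75, edgeR adjusted p = 0.947). Irx1 had 8.65 and 16.4 CPM in GLI1 OE, against 23.7 and 16.5 CPM in controls (-0.68 ± 0.61, edgeR adjusted p = 0.919). In 4 of the 5 members the groups did not overlap, with GLI1 OE lower for Irx1 and Irx4 (15.2% of all genes) and higher for Irx3 and Irx5 (17% of all genes). Irx2 overlapped (-0.82 ± 0.87, edgeR adjusted p = 0.928). The authors' deposited table for D8 gives an adjusted p of 1 for all 6 members, and calls 0.0727% of all genes.

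At D12, 6 days after the wash, the estimates of Irx3 and Irx5 were the largest of the 5 and above 0. Called by edgeR were 0 of the 5 members and 0% of all genes, and at an unadjusted p under 0.05 2 of the 5 members, Irx3 and Irx5, and 5.64% of all genes. Irx3 had 13.2 and 13.2 CPM in GLI1 OE libraries 10 and 20, against 5.62 and 3.49 CPM in control libraries 19 and 9 (edgeR log2 fold change 1.54 ± 0.37, adjusted p = 0.492). Irx5 had 5.91 and 4.43 CPM in GLI1 OE libraries 10 and 20, against 1.17 and 1.31 CPM in control libraries 19 and 9 (2.05 ± 0.83, edgeR adjusted p = 0.825). For both genes each GLI1 OE library was above each control.

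In the authors' deposited table for D12, Irx5 (log2 fold change 2.06, adjusted p = 0.00176) and Irx3 (1.54, adjusted p = 0.00916) were called higher, where 0.489% of genes were called higher and 0.523% in either direction, and the other members were not called. The estimates agreed between that table and the fit here to within 0.01 log2 units for these 2 genes, and the p-values did not. In the fit here the groups of Irx1, Irx2, Irx3 and Irx5 did not overlap, with GLI1 OE higher, as for 17.9% of all genes. Irx1 had 4.37 and 8.14 CPM in GLI1 OE, against 4.14 and 3.13 CPM in controls (0.79 ± 0.65, edgeR adjusted p = 0.97), and Irx2 had 3.29 and 6.39 CPM in GLI1 OE, against 2.65 and 2.27 CPM in controls (0.98 ± 0.92, edgeR adjusted p = 0.971). Irx4 had 6.30 and 1.21 CPM in GLI1 OE, against 8.81 and 5.86 CPM in controls (-0.98 ± 0.98, edgeR adjusted p = 0.971), and was the only member with an estimate below 0.

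At D12 the 7 neural markers summed to 129 and 170 CPM in GLI1 OE and 154 and 125 CPM in controls. The 4 tested had estimates above 0 (median 1.31) with 0 called, where 0% of all genes were. Sox1 and Neurog2 did not pass the filter on low counts over all libraries, and were at 0 in the controls. Pax6 and Tubb3 averaged at most 0.258 CPM in either group, close to the limit of detection. Their estimates were 1.6 ± 1.9 and 1.3 ± 1.8. Nes, which was most of the sum, had an estimate of 0.06 ± 0.38. Mtap2 had 1.29 ± 0.40 (edgeR adjusted p = 0.639). Paraxial mesoderm markers summed to 20.9 and 76.1 CPM in GLI1 OE libraries 10 and 20 and to 17.6 and 19 CPM in controls, and cardiomyocyte markers to 4650 and 2340 CPM in GLI1 OE and 9440 and 3690 CPM in controls. The part of these cells in the D12 values was not tested.

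From D8 to D12 within GLI1 OE cells Irx3 fell (edgeR log2 fold change -1.31 ± 0.36, adjusted p = 0.0118), the only one of the 5 members called, where 17.5% of all genes were called lower and 33.5% in either direction. It was 13.2 CPM in both D12 GLI1 OE libraries, against 31.7 and 34.1 CPM in the D8 GLI1 OE libraries. The call was lost without D8 GLI1 OE library 18 (0.0511), D12 GLI1 OE library 10 (0.0669) or D12 GLI1 OE library 20 (0.0653). Irx5 had an estimate of -1.23 ± 0.77 (edgeR adjusted p = 0.236).

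**Figure D3:**
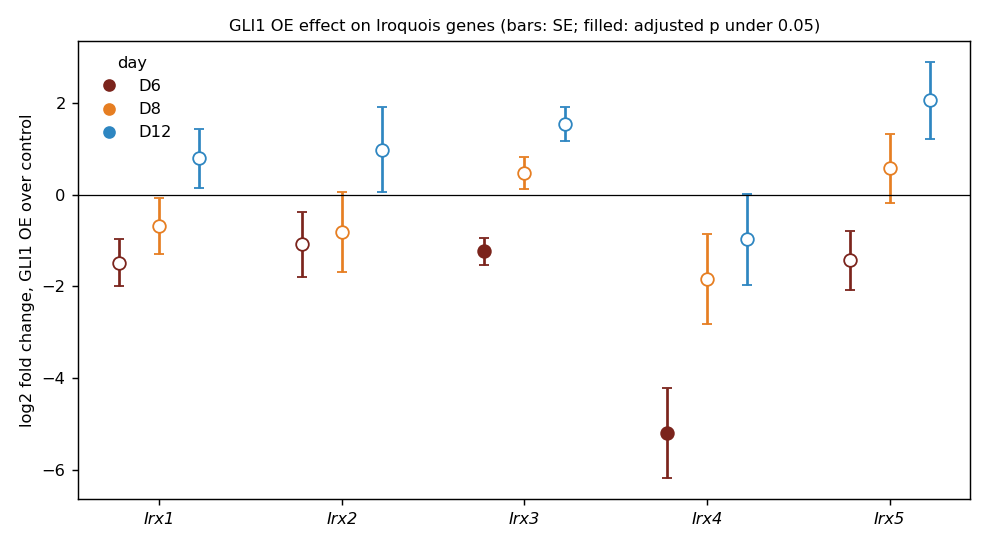
Log2 fold change of GLI1 OE over control (vertical axis, bars are SE) for the 5 tested Iroquois genes at D6, D8 and D12, with filled points for an edgeR adjusted p under 0.05. The D6 points of all 5 lie below 0, filled for Irx3 and Irx4, and the D12 points of all but Irx4 lie above 0.

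Whether the effect of the pulse differed between days was tested through the difference of the log2 fold changes itself. For Irx3 the effect at D12 minus that at D6 was 2.77 ± 0.47 (edgeR adjusted p = 0.0129), and it was the 1 member of 5 called, where 0.094% of all genes were called higher and 0.604% in either direction. Its GLI1 OE level was 0.425 of the control at D6 and 2.90 of the control at D12. The call was lost without D12 control library 9 (0.102), D12 GLI1 OE library 10 (0.0503) or D12 GLI1 OE library 20 (0.0672), with values from 2.47 to 3.15 over the 10 libraries left out, and with adjacent library numbers as a block (0.066).

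The same difference was 3.48 ± 1.06 for Irx5 (edgeR adjusted p = 0.238), 4.22 ± 1.37 for Irx4 (0.284), 2.27 ± 0.83 for Irx1 (0.384) and 2.07 ± 1.16 for Irx2 (0.681). The effect at D8 minus that at D6 had 0 of 5 members called and 0.631% of all genes, with 1.70 ± 0.46 for Irx3 (edgeR adjusted p = 0.171) and 3.35 ± 1.34 for Irx4 (0.551). At an unadjusted p under 0.05 there were 2 of 5 members and 7.02% of all genes, and DESeq2 called 1, Irx3 (0.0295). The effect at D12 minus that at D8 had 0 of 5 members called and 0% of all genes, with 0 of 5 members and 2.38% of all genes at an unadjusted p under 0.05.

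Within the family, most pairs of Irx1, Irx2, Irx3 and Irx5 varied together across libraries, as a description over 18 libraries that share days and conditions. The correlation of log2 CPM was 0.875 for Irx1 and Irx2, and 0.837 after group means were removed. It was 0.821 for Irx3 and Irx5, and 0.774 after group means were removed. Between the clusters it was 0.731 for Irx1 and Irx5 (0.582 after group means were removed), 0.671 for Irx2 and Irx5 (0.724), 0.596 for Irx1 and Irx3 (0.673) and 0.316 for Irx2 and Irx3 (0.570). Irx4 had correlations to the other 4 between 0.114 and 0.292, although it lies in the cluster of Irx1 and Irx2. The highest of these was near that of Irx2 and Irx3. After group means were removed, Irx4 was apart, with correlations to the other 4 between -0.139 and 0.159. In D5 control library 3, Irx5 was 1.45 CPM, against 12.9 to 14.6 CPM in the other 3, and Irx3 was also lowest there at 5.68 CPM.

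**Figure D4:**
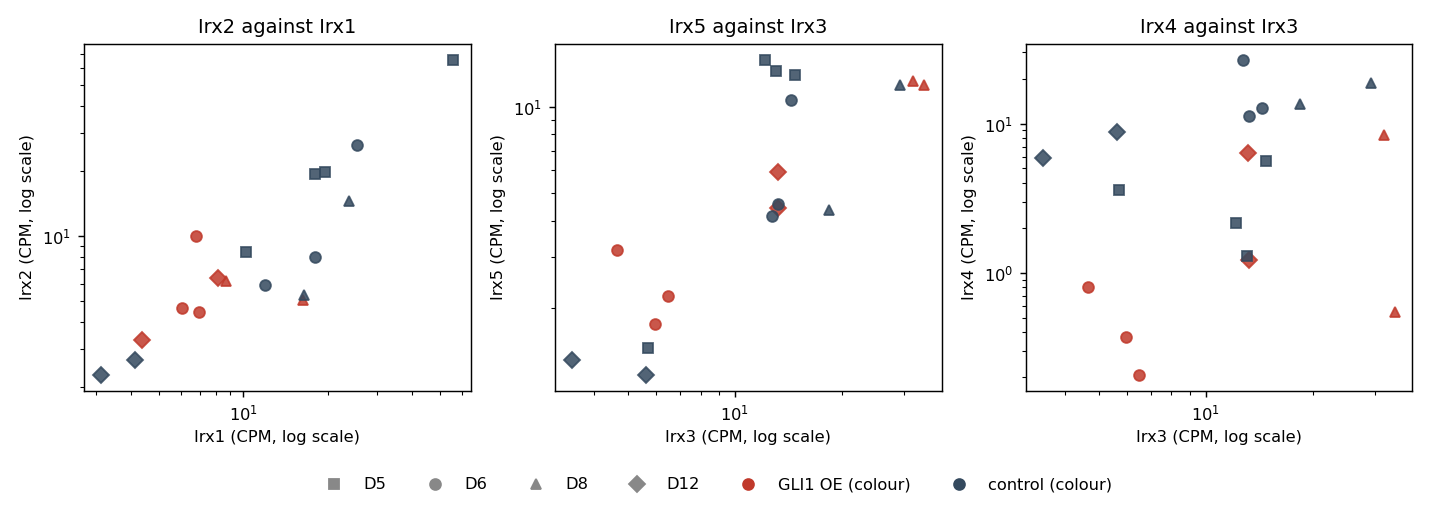
Levels (CPM, both axes log) of Irx2 against Irx1, Irx5 against Irx3 and Irx4 against Irx3, 1 point per library, with GLI1 OE in red, controls in grey and the day as the symbol. The first 2 panels run along a diagonal (correlations of log2 CPM 0.875 and 0.821), and in the third the points scatter (0.292).

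4933436C20Rik, which the RefSeq table (GRCm38.p6) names Crnde, a noncoding RNA gene between Irx3 and Irx5, followed Irx5 with a correlation of 0.843, and 0.915 after group means were removed. At D6 it had 0.997, 0.971 and 0.951 CPM in GLI1 OE libraries 12, 16 and 4, against 2.93, 1.68 and 0.893 CPM in control libraries 11, 15 and 3 (edgeR log2 fold change -0.91 ± 0.62, adjusted p = 0.562). At D12 it had 4.26 and 3.58 CPM in GLI1 OE, against 1.59 and 1.01 CPM in controls (1.59 ± 0.75, edgeR adjusted p = 0.891). The D12 groups did not overlap, and those at D6 did.

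The 4 nearest tested genes on each side of a cluster and the tested genes inside it made 9 genes per cluster besides the members. At D6, 0 of the 9 in each cluster were called, where 4.14% of all genes were. At D8 and D12 0% of all genes were called, so a count of called neighbours says nothing on those days. Around the chromosome 13 cluster the D6 estimates ran from -1.37 for Ube2ql1 to 0.24, with a median of -0.11, and around the chromosome 8 cluster from -1.65 for Capns2 to 0.16, with a median of -0.09. Ndufs6, a gene of the respiratory chain that was the next tested gene after Irx4, had a D6 log2 fold change of -0.07 ± 0.14 (edgeR adjusted p = 0.897). Fto, the RNA demethylase gene next to Irx3, whose introns hold enhancers of Irx3 in mouse and human, had -0.09 ± 0.10 (edgeR adjusted p = 0.764).

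**Figure D5:**
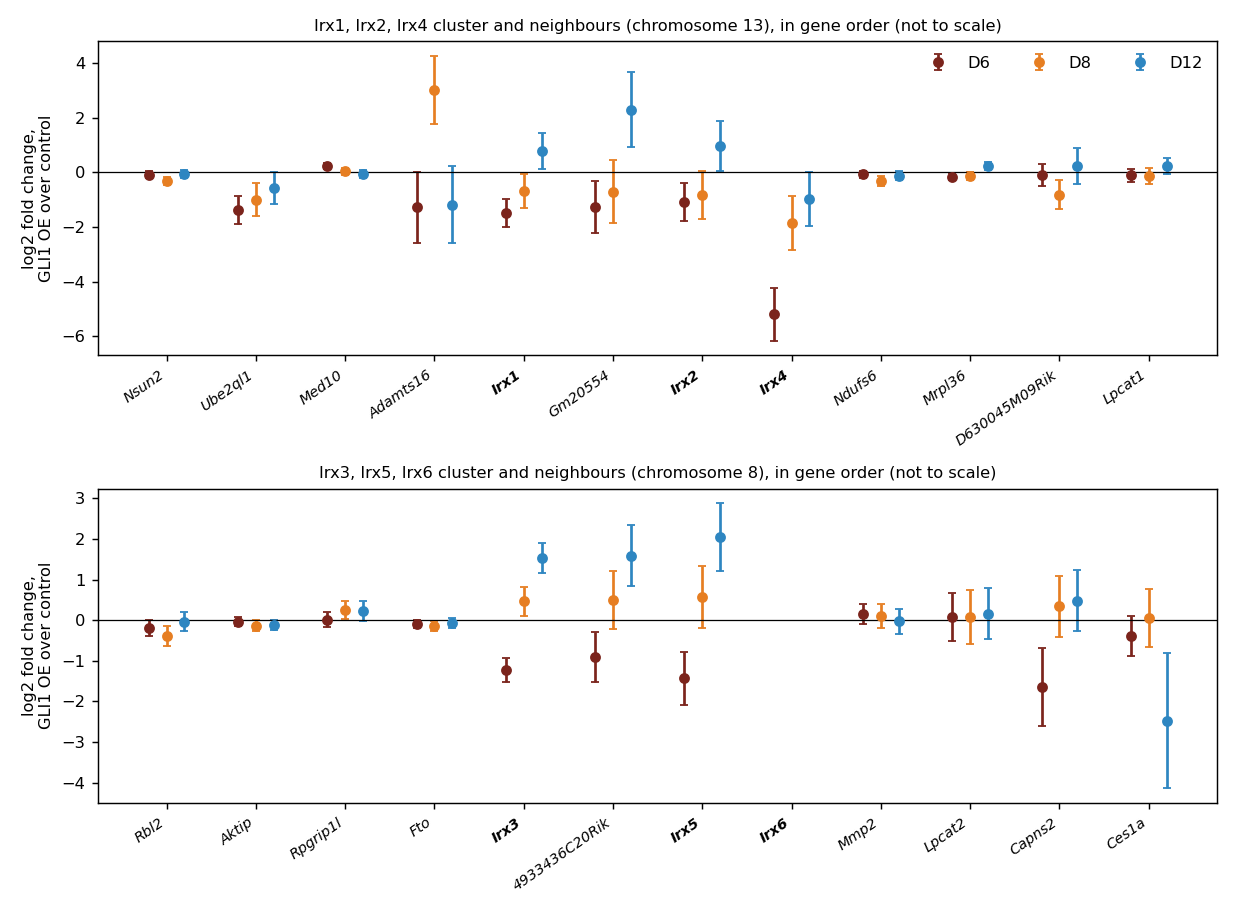
Log2 fold change of GLI1 OE over control (vertical axis, bars are SE) at D6, D8 and D12 for the Iroquois genes (bold) and their neighbours, in gene order and not to scale, with chromosome 13 above and chromosome 8 below. Irx6 was not tested and has no point, and Irx4 has the lowest D6 value (-5.20) beside Ndufs6 near 0.

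Genes outside the family were ranked for each member by their correlation of log2 CPM with it over the 18 libraries. The 11145 ranked were tested genes with a mean log2 CPM of at least 1, without predicted genes (Gm with digits, or names ending Rik). Within the family, Irx1 and Irx2 correlated at 0.875, as given above. The 3 highest outside the family are named for each member. For Irx4 they were Tbx20, a cardiac T-box factor gene (0.897), Kcnj5, a potassium channel gene (0.895), and Fhod3, which encodes a sarcomere-organizing formin (0.872). For Irx1 they were Prrx2 (0.858), Scn8a (0.841) and Rnft1 (0.839), where Prrx2 is a homeobox gene of mesenchyme. For Irx2 they were Shisa6 (0.905), Zfp607 (0.89) and Atxn7 (0.88), for Irx3 Mdga1 (0.852), Nfkbie (0.849) and Sox12 (0.845), and for Irx5 Galntl1 (0.88), Fbxl16 (0.861) and Hfm1 (0.847). After group means were removed, the correlations were 0.702 to 0.868 for the 3 genes of Irx4 and 0.722 to 0.851 for those of Irx1. They were 0.804 to 0.877 for the 3 genes of Irx2, 0.407 to 0.554 for those of Irx3 and 0.622 to 0.814 for those of Irx5.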

How the data were processed

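The authors deposited raw read counts per gene symbol for 18 libraries of polyA RNA, TPM for the D5 controls, and tables of log2 fold changes with p-values and adjusted p-values for D6, D8 and D12. DESeq2 made the D6 table, per the file headers. For aligner, counter, strand setting and build, the sources used here give nothing. Counts were fitted in R 4.3.3 with edgeR 4.0.16: filter at a minimum count of 10, TMM, robust quasi-likelihood F tests with each of 7 groups as a coefficient over all 18 libraries, and Benjamini-Hochberg adjustment over 14892 genes in each contrast. SE is the log2 fold change over the square root of F. Total counts of 18470785 to 26184339 per library set the precision, and Irx6 alone fell below the filter. Correlations used log2 CPM with a prior count of 2. For computed TPM, 20953 of 23337 symbols matched the GENCODE lengths. Column names carry library numbers and no replicate numbers, so libraries are named by those. In all 3 D6 pairs of adjacent numbers, deviations from group means correlated (0.445 to 0.617). The value was 0.491 at D8 and -0.231 at D12, and such pairs entered as a block in 3 alternatives, on all days, with the D12 pairs crossed, and at D6 only. The others were RLE and upper-quartile scaling, no filter, DESeq2 1.42.0, limma-voom (limma 3.58.1), the libraries of 1 day and each library left out. The members and gene lists were chosen with earlier results of these data known. All 6 members are named, with Iroquois-linked and neural tube list genes past the threshold. Also named are up to 4 genes of smallest adjusted p in each other list, genomic neighbours and the 3 most correlated genes per member. Those 3 leave out the family and predicted genes.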

Additional observations from a re-analysis of the deposited data

Results flagged for a closer look

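Irx5 in D5 control library 3 was 1.45 CPM, against 12.9 to 14.6 CPM in the other 3 D5 controls, a gap of 0.874 of the range, where the Dixon limit for 4 samples is 0.829. Of the groups, only D5 is large enough for this check, which was made for 6 genes, and chance marks about 1 group in 20.

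The GLI1 OE effect on Irx3 differed between D12 and D6 by 2.77 log2 units in the test of the difference itself (edgeR adjusted p = 0.0129). The call was lost with adjacent library numbers as a block (0.066, and 0.0522 with the D12 pairs crossed), and without D12 control library 9 (0.102) or D12 GLI1 OE library 10 (0.0503) or 20 (0.0672). The GLI1 OE libraries were below the controls at D6 and above them at D12.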

How the results depend on the processing

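RLE and upper-quartile scaling, no filter and single-day fits left the number of members called within 1.5 times its value in each comparison. Of the 775 single-gene values recomputed, 696 kept direction and side of the threshold, 52 lost a call, 8 gained one and 19 changed sign. The 775 include members not called in the main fit, so the 696 do not measure how stable the calls were. DESeq2 called 1 member for control D8 vs D6, 1 for the effect at D8 minus D6 and 3 for D12 minus D6. Limma-voom called 1 each for D6 GLI1 OE, control D8 vs D6, control D12 vs D8, D6 GLI1 OE vs D5 and GLI1 OE D8 vs D6. The replicate block by adjacent library numbers called 1 at D6 and 0 for the effect at D12 minus D6, as it did with the D12 pairs crossed, and the block at D6 only called 1 at D6, all losing Irx3. No other call changed under the block, which could not be fitted between days. These last forms were added after seeing the data. Leaving out 1 library gave 1 at D6, 2 to 5 for D6 GLI1 OE vs D5, 1 to 3 for control D12 vs D8, 0 to 1 for control D6 vs D5, 0 to 1 for control D8 vs D6, 1 to 3 for GLI1 OE D8 vs D6, 0 to 1 for GLI1 OE D12 vs D8 and 0 to 1 for the effect at D12 minus D6. The causes were not tested.

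The values that changed sign had not passed the test. In limma-voom they were Irx4 at 0.037 for control D8 vs D6 and at 0.27 for GLI1 OE D12 vs D8. With 1 library left out, control D8 vs D6 ran from -0.17 to 0.42 for Irx1, -1.35 to 0.51 for Irx2, -0.33 to 0.42 for Irx4 and -0.57 to 0.90 for Irx5, and control D6 vs D5 from -0.79 to 0.21 for Irx1. Irx2 ran from -1.38 to 0.073 at D8, -0.38 to 0.30 for GLI1 OE D8 vs D6, -0.74 to 0.18 for GLI1 OE D12 vs D8 and -0.69 to 1.17 for the effect at D8 minus D6. Irx4 ran from -1.88 to 2.79 for GLI1 OE D12 vs D8 and -0.74 to 3.91 for the effect at D12 minus D8. Where leaving out a library leaves 1 in its group, that one is assumed to vary like the other groups.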
